A study of Mus musculus with 14 samples.

Results

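The genes of the cytosolic ribosomal proteins were followed in the hippocampus of mice kept in normal air, in intermittent hypoxia or in sustained hypoxia. Members were taken by symbol: Rpl or Rps followed by a number, together with Rplp0, Rplp1, Rplp2 and Rpsa. In all, 77 symbols matched this pattern. The kinase genes whose symbols begin with Rps6k, Rps19bp1, and Rps21, Rpl38, Rpl39 and Rps27rt were left out, which removed 13 genes. This left 64 members of the 7756 genes in the table, 38 of the large subunit (Rpl) and 26 of the small subunit (Rps). Of these, 60 are annotated as protein-coding. The other 4 are the pseudogenes Rpl17-ps8, Rpl6l and Rpl34-ps1 and the long non-coding RNA gene Rpl37rt. All 64 passed the filter on low counts, so that every member was among the 7338 genes tested.

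Male C57BL/6J mice, 8 weeks old at the start, were kept for 28 days in 1 of 3 conditions. The control group (4 libraries) breathed 21% oxygen. In the IH group (5 libraries), each cycle of 2 min held 70 s at low oxygen (10%) and 50 s at 21%, and the cycles were run during 8 h per day. The SH group (5 libraries) breathed 10% oxygen for 8 h per day. All 3 groups were of the same strain and carried no engineered allele or drug. Per the study's methods, a Y-maze test and a passive avoidance test with an electric shock came between the exposure and collection of the hippocampus. The control libraries came from a preliminary experiment and the IH and SH libraries from the main one, so group and experiment cannot be told apart in either comparison with the control group. Whether the mice of the preliminary experiment had these behavioral tests is not stated outright. IH and SH can be compared within the main experiment. In bulk tissue, fewer cells of a type and less RNA per cell cannot be told apart.

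The cytosolic ribosome is built from ribosomal RNA and a fixed set of proteins, each present in a single copy except the acidic stalk proteins. The small subunit binds the mRNA and decodes it, and the large subunit joins the amino acids and holds the exit tunnel for the new chain. In mammals the genes of these proteins are scattered over the chromosomes and their mRNAs are kept near one another in amount. Most of these mRNAs begin with a run of pyrimidines, the terminal oligopyrimidine (TOP) tract, through which mTOR and LARP1 control their translation. In hippocampal neurons, ribosomes lie both in the cell body and in dendrites, where local translation serves synaptic plasticity. The genes also have many processed pseudogenes, copies that were made from the mRNA and inserted elsewhere, which makes it hard to assign a read to its gene.

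The total count per library was 8352355 to 11777100 in the control group, 7568082 to 10578074 in the IH group and 7203660 to 10480839 in the SH group. Of 20 markers of hippocampal excitatory neurons, 15 were in the table and none of these was at 0 in any library. Their summed normalized counts were 185652 to 209095 in the control group, 168725 to 198671 in IH and 163772 to 205561 in SH. Markers of the choroid plexus, all 20 of which were in the table, summed to 4716 to 131432, 5761 to 80632 and 5627 to 98034, so that every group held libraries with much and with little of them. Control replicate 4, IH replicates 1 and 4 and SH replicate 1 were the 4 libraries richest in these markers. IH replicate 3 stood apart from the other IH libraries in the members themselves, as described below. The counts of calls are given with and without these libraries.

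The starts of the genes show what these members share and where they differ. The sequences below are those of the members that differed between the IH and SH groups, from 30 bases before to 30 bases after the first start listed in the RefSeq table where an entry was given. The sequences are RefSeq's (GRCm38.p6), the positions were found by exact match to GRCm39, and each sequence reads 5′ to 3′ along the gene. Capitals mark the longest unbroken run of C and T in each, and in Rps7, where a run of the same length ends the sequence, the first of them. The first 4 genes were higher in IH than in SH, and the other 7 were lower.
Rps24, chr14:24540716-24540775, plus strand: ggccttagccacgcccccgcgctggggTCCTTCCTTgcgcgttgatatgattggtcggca
Rps19, chr7:24583987-24584046, plus strand: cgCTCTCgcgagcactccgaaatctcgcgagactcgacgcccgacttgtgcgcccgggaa
Rpl13a, chr7:44778140-44778199, minus strand: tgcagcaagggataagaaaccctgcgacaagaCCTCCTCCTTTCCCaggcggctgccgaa
Rpl10, chrX:73314392-73314451, plus strand: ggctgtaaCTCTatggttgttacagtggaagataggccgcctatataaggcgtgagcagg
Rps28, chr17:34043507-34043566, minus strand: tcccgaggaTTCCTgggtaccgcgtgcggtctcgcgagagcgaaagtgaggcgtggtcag
Rps15, chr10:80128235-80128294, plus strand: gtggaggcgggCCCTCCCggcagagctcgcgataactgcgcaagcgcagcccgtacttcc
Rpl22l1, chr3:28859627-28859686, plus strand: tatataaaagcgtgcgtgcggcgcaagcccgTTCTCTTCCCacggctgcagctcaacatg
Rpl28, chr7:4795934-4795993, plus strand: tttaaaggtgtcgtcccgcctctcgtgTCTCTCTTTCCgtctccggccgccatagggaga
Rpl31, chr1:39406902-39406961, plus strand: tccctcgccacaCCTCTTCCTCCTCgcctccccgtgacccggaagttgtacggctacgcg
Rpl37, chr15:5146065-5146124, plus strand: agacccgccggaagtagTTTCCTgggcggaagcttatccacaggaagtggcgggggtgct
Rps7, chr12:28685923-28685982, minus strand: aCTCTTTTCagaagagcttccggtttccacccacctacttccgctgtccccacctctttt

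In Rps24 and Rpl28 the run spans the listed start, and in Rpl13a and Rpl22l1 it begins just after it. In Rps28, Rps19 and Rpl10 the longest run is short and lies upstream of the listed start. The RefSeq table held 52 starts for 45 of the 64 members. A run of at least 8 C or T within 20 bases of the start was found at 44.2% of the member starts and at 16% of all 32851 starts in the table. The ETS-type sequence CCGGAAG stood within 250 bases before to 50 bases after 34.6% of the member starts, and of 8.86% of all starts. The YY1-type sequence GCCATNTT was found at 26.9% against 6.05%, the GC-box sequence GGGCGG at 63.5% against 35.7%, and TATAAA at 9.62% against 13.6%. All 4 were searched on both strands, and matches that overlapped another motif were kept. Of the 18 genes with a listed start that fell in SH, 12 had the run of pyrimidines at a start, as had 22 of all 45 members with a start. Whether the listed starts are those used in the hippocampus was not tested.

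The members stood among the most abundant mRNAs of the table. Per kb of coding sequence, the 60 protein-coding members had a median of 5084 normalized counts over all libraries, and all genes with a coding sequence had a median of 347.7. The medians of the Rpl (5013) and Rps (5195) members were close to each other. In all, 54 of the 60 lay above the 90th percentile of all genes, 2463 normalized counts per kb. On this scale Rpl41, the smallest ribosomal protein, was highest at 35520, followed by the stalk protein gene Rplp1 (16540), Rpl13a (10340), Rps15 (10260) and Rpl37 (9694). The lowest were Rpl7a (1309), Rpl17 (1576) and Rpl22l1 (1701). Rpl7a and Rpl17 have 33 and 22 annotated copies of at least 95% identity, so that their counts are uncertain.

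As a group, the members took a smaller share of the counts under both kinds of hypoxia than in the control group. They held 1.88% ± 0.0869 (SD, n = 4) of all counts in the control group, 1.68% ± 0.116 (n = 5) in IH and 1.73% ± 0.0559 (n = 5) in SH. By library, the share was 1.79%, 1.93%, 1.98% and 1.83% in the control group. It was 1.59%, 1.64%, 1.88%, 1.60% and 1.67% in IH, and 1.74%, 1.65%, 1.70%, 1.74% and 1.80% in SH. IH replicate 3 lay inside the range of the control libraries and the other 4 IH libraries lay below it. In SH, replicate 5 lay just inside the control range and the other 4 lay below.

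The Rpl and Rps members moved together. The Rpl share was 1.04% ± 0.0468 in the control group, 0.930% ± 0.0624 in IH and 0.957% ± 0.0257 in SH, and the Rps share was 0.844% ± 0.0402, 0.747% ± 0.0538 and 0.770% ± 0.0314. The ratio of Rpl to Rps counts was 1.23 ± 0.00435 in the control group, 1.24 ± 0.0106 in IH and 1.24 ± 0.0247 in SH. Single libraries ran from 1.21 (SH replicate 5) to 1.27 (SH replicate 1), and the 4 control libraries fell within 1.23 and 1.24. The ratio overlapped between all 3 groups.

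**Figure D1:**
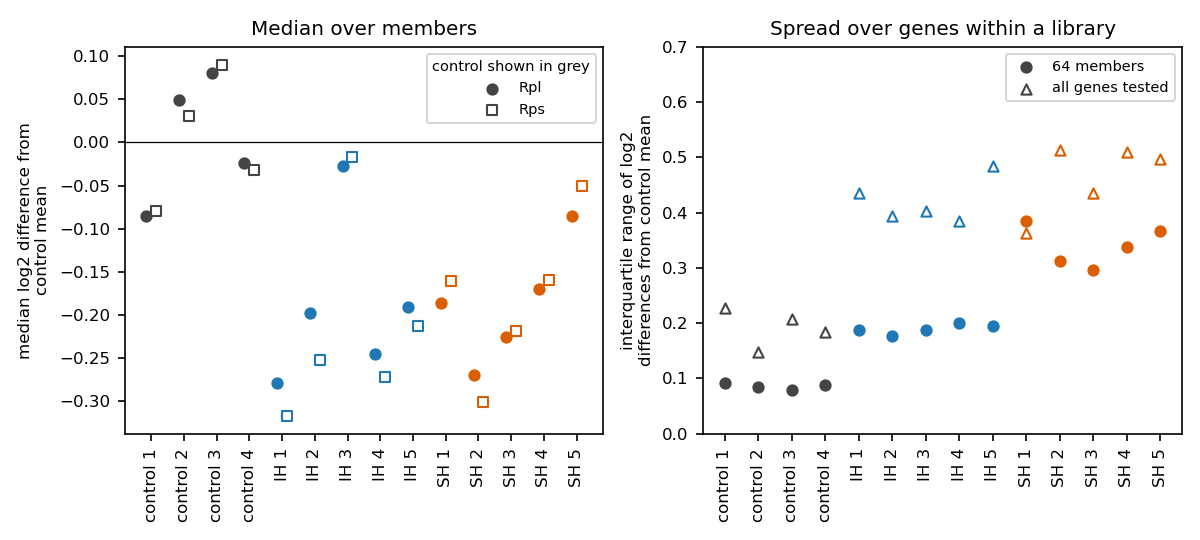
Left, the median over the Rpl members (filled circles) and the Rps members (open squares) of the log2 difference from the control mean, for each of the 14 libraries. Right, the interquartile range of these differences over the 64 members (circles) and over all 7338 genes (triangles). Rpl and Rps medians lie side by side in every library, IH replicate 3 lies near the control libraries, and the spread over members is widest in the SH libraries.

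Set against the control mean of each gene, the median over members was -0.28, -0.23, -0.02, -0.26 and -0.20 on the log2 scale in IH replicates 1 to 5. In SH it was -0.18, -0.27, -0.22, -0.16 and -0.08, and the control libraries themselves lay between -0.08 and 0.08. In IH replicate 3, 36 of the 64 members lay under the control mean, compared with 55 to 61 in the other IH libraries. Of SH replicates 1 to 5, replicate 5 had the fewest such members, 37, and the others had 44 to 52. The slope of the log2 differences over all genes on transcript length also differed in IH replicate 3, at -0.061 per doubling of length compared with 0.043 to 0.063 in the other IH libraries. The slope on GC content was -0.18 to -0.118 per 10% GC in IH and -0.289 to -0.075 in SH, compared with -0.101 to 0.094 in the control group. The part of these slopes in the members' levels was not tested beyond the fits described below, in which the trends were removed.

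Single members departed further from one another in SH than in IH. The interquartile range of the members' log2 differences from the control mean was 0.0784 to 0.0912 within single control libraries, 0.177 to 0.201 within IH libraries and 0.296 to 0.384 within SH libraries. Over all genes it was 0.148 to 0.227, 0.385 to 0.484 and 0.364 to 0.514. Control libraries enter their own mean, which narrows their range. The table was also selected for genes that differed from control, which bears on how far the hypoxia libraries lie from the control mean, so the control range is not compared with theirs. IH and SH libraries do not enter that mean, and none of the 5 IH libraries reached the range of the 5 SH libraries for the members, whereas the ranges over all genes overlapped.

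The spread of single members between mice of a group was described by the SD over its libraries. The median SD over libraries of the log2 normalized count was 0.0945 in the control group, 0.138 in IH and 0.121 in SH for the members, and 0.145, 0.179 and 0.176 for all genes, most of which are less abundant. Genes of like abundance were not compared. Rpl and Rps members were alike in this, at 0.0984 and 0.0940 in the control group, 0.135 and 0.145 in IH, and 0.131 and 0.118 in SH.

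The first comparison asks how the members differed between the IH and control groups. In the IH group, 13 of the 64 members (20.3%) were lower at an adjusted p under 0.05 in edgeR's quasi-likelihood test, and 0 were higher. Of all genes tested, 10.9% were called in this comparison, 4.85% as lower and 6.08% as higher. No member was higher at an unadjusted p under 0.05 either (0 of 64), nor by DESeq2 (0). The median log2 fold change was -0.20 over the members and -0.02 over all genes, and 58 of 64 members had a negative value. It was -0.19 over the Rpl members, of which 6 of 38 fell, and -0.21 over the Rps members, of which 7 of 26 fell. No member passed the study's own limits, a fold change of 1.5 with an unadjusted p under 0.05, which 2.63% of all genes passed. Of the members, 42 had an unadjusted p under 0.05.

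The number of calls rested on single libraries. For these fits, and for the other alternatives to the main fit below, the share of all genes called is not given. The members' counts in them can therefore not be set against that share. Without IH replicate 3 it was 35 members, and without control replicate 2 it was 6, whereas the median stayed between -0.24 and -0.18 when any 1 library was left out. Without the 4 libraries richest in choroid plexus markers, which leaves 3 libraries in the control group and 3 in IH, it was 0, with 16 members lower and 0 higher at an unadjusted p under 0.05 by edgeR, and a median of -0.17. When trends on GC content and length were removed it was 6, with a median of -0.11. Globin genes, which mark erythrocytes, moved with this comparison: all 4 tested were lower in IH (Hba-a1 not without control replicate 1 or 2, at adjusted p up to 0.0513, and Hbb-bt not without any 1 of the control libraries or IH replicate 4, up to 0.08), and the summed level of the 5 erythrocyte markers in the table was 1649 to 2304 normalized counts in IH and 2926 to 3189 in the control group. Their part in the members' levels was not tested.

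Rps28 and Rps29, both of the small subunit, had the lowest log2 fold changes in IH. Rps28 (chr17:34034199-34043536), which encodes a small protein of the subunit's head, had 1120, 1334, 1077 and 1033 normalized counts in the control libraries. It had 748, 610, 933, 712 and 845 in IH and 1140, 1032, 1109, 1162 and 1300 in SH. All 5 IH libraries lay below every control and every SH library, and the SH and control libraries overlapped. Its level fell by 0.57 ± 0.112 (SE) on the log2 scale from control to IH (adjusted p = 0.00625), and the SH value was 0.01 ± 0.112 (adjusted p = 0.961). Rps29 (chr12:69204495-69205960), which encodes a zinc-binding protein of the head and has no annotated near-identical copy, had 2909, 2930, 2986 and 2670 normalized counts in the control group. It had 1737, 1947, 2393, 1777 and 1867 in IH and 1461, 1590, 1536, 1426 and 2000 in SH. Both hypoxia groups lay wholly below the control group, and they overlapped each other. Its log2 fold change was -0.56 ± 0.103 in IH (adjusted p = 0.004) and -0.84 ± 0.103 in SH (adjusted p = 0.000267).

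A further 4 members fell in IH and kept the call in all 14 fits that left out 1 library. Rps15, which encodes a protein of the small subunit's head, had 4954, 5255, 4977 and 4864 normalized counts in the control group and 3713, 3766, 4326, 3651 and 3578 in IH, with no overlap, and its log2 fold change was -0.40 ± 0.0752 (adjusted p = 0.00518). Rps23, whose protein lies at the decoding centre, had 3218 to 3749 in the control group and 2451 to 3027 in IH, and the change was -0.34 ± 0.0686 (adjusted p = 0.00703). Rpl21 had 1091 to 1441 in the control group and 867 to 1069 in IH, with a change of -0.42 ± 0.0912 (adjusted p = 0.0106). It has 58 annotated copies of at least 95% identity, the most of any member. Rpl32 had 1958 to 2356 and 1685 to 1787, with a change of -0.29 ± 0.0576 (adjusted p = 0.00613). In none of the 4 did the IH and control libraries overlap. These 4, with Rps28 and Rps29, all missed the threshold once the 4 choroid-rich libraries were left out, at adjusted p = 0.0531 for Rps15 to 0.0898 for Rps23, with fewer samples in the fit. Their log2 fold changes were then -0.56 (Rps28), -0.50 (Rps29), -0.41 (Rpl21), -0.38 (Rps15), -0.28 (Rpl32) and -0.28 (Rps23). With the GC and length trends removed, Rps28 (-0.34, adjusted p = 0.0595), Rps15 (-0.16, adjusted p = 0.0674) and Rpl32 (-0.17, adjusted p = 0.12) also missed it.

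Further calls in IH were Rpl13, Rpl36, Rps16, Rps10, Rps9 and Rpl35, with log2 fold changes between -0.36 (Rps16) and -0.19 (Rpl35). Each of them was lost when single libraries were left out, control replicate 2 among them in every case. Among the fits that left out 1 library, Rpl13 (adjusted p = 0.0684), Rpl36 (0.0695) and Rps16 (0.061) were lost only without that one. Rps10 was also lost without control replicate 3 or IH replicate 1 or 4, at adjusted p = 0.0555 to 0.0714 over these fits, and Rps9 without those or IH replicate 2 (0.0536 to 0.0974). Rpl35 was also lost without control replicate 3 or 4, IH replicate 1, 2, 4 or 5 or SH replicate 3 (0.0508 to 0.131). Each of these calls was lost as well without the choroid-rich libraries, and with trends on GC content and length, whole or coding, removed. With the GC and length trends removed, the change in IH was -0.28 in Rps16 (adjusted p = 0.0603) and -0.13 in Rpl13 (0.233). It was -0.10 in Rps10 (0.446) and -0.08 in Rpl36 (0.462).

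The second comparison sets SH against control. In the SH group, 25 members fell and 4 rose, which is 45.3% of the 64, where 20.6% of all genes were called (10.5% lower and 10.1% higher). The median log2 fold change was -0.16 over the members and 0.00 over all genes. The Rpl members (15 of 38 lower, 3 higher, median -0.17) and the Rps members (10 of 26 lower, 1 higher, median -0.13) were again alike. The SD of the log2 fold changes over members was 0.273 in SH and 0.132 in IH, and over all genes it was 0.279 and 0.268. At the study's limits, 3 members were lower and 3 higher in SH, and 2.63% of all genes passed them. The number of calls was 21 to 30 when any 1 library was left out, and 17 (12 lower, 5 higher) when GC and length trends were removed. Without the 4 choroid-rich libraries it was 19 (16 lower, 3 higher), with a median of -0.22. Markers of microglia moved with this comparison: C1qa, C1qc and Csf1r of the 6 tested were lower in SH, and the summed level of the list was 3672 to 4535 normalized counts in SH and 4866 to 5404 in the control group. C1qc was lower in all 14 fits that left out 1 library. C1qa was not without control replicate 2 or 3 or SH replicate 2 or 3 (adjusted p up to 0.0998), and Csf1r was not without any 1 of the control libraries, IH replicate 2 or 4 or SH replicate 2, 3 or 5 (up to 0.12). Their part in the members' levels was not tested.

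Among the members called in SH, the 3 greatest falls were in the small subunit genes Rps29, Rps19 and Rps10. Rps19 (chr7:24583796-24589231) is a gene needed for maturation of the small subunit and the one most often mutated in Diamond-Blackfan anemia. It had 2275, 2645, 2605 and 2388 normalized counts in the control group, 2046, 2075, 2608, 2056 and 2020 in IH and 1544, 1516, 1479, 1610 and 1624 in SH. Every SH library lay below every other library. IH replicate 3 lay among the control libraries, and the other 4 IH libraries lay between the control and SH groups. The log2 fold change was -0.67 ± 0.0769 in SH (adjusted p = 0.000155) and -0.20 ± 0.0768 in IH (adjusted p = 0.101).

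Rps10 (chr17:27849390-27855643), which encodes a protein at the mRNA entry side of the head, had 1825, 2013, 2043 and 1901 normalized counts in the control group. It had 1438, 1570, 1818, 1395 and 1616 in IH and 1337, 1175, 1453, 1278 and 1384 in SH. The SH libraries lay wholly below the control libraries and overlapped the IH libraries. The log2 fold change was -0.55 ± 0.0809 in SH (adjusted p = 0.000673).

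Rps24 (chr14:24537193-24547028), another small-subunit gene mutated in Diamond-Blackfan anemia, had the smallest spread around its group means of all 64 members, 0.0604 on the log2 scale. It had 4056, 4175, 4465 and 4181 normalized counts in the control group, 4316, 4468, 4809, 4175 and 4478 in IH and 3287, 3425, 3287, 3375 and 3517 in SH. The SH libraries lay below all others, and the IH and control libraries overlapped. The log2 fold change was -0.32 ± 0.051 in SH (adjusted p = 0.0011) and 0.08 ± 0.0512 in IH (adjusted p = 0.323).

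In the large subunit, Rpl13a and Rpl10 showed the same order of groups. Rpl13a (chr7:44774982-44778263), whose protein can also act outside the ribosome to repress translation, had 6238 to 7001 normalized counts in the control group, 6384 to 7498 in IH and 4976 to 5741 in SH. The SH libraries lay below all others. The change was -0.30 ± 0.0616 on the log2 scale in SH (adjusted p = 0.00466) and 0.00 ± 0.0617 in IH (adjusted p = 0.987). Rpl10 (chrX:73314418-73316741), which joins the large subunit late in its assembly, had 3658 to 4151, 3696 to 4440 and 3026 to 3641. Its SH value was -0.27 ± 0.0692 (adjusted p = 0.0145) and its IH value 0.01 ± 0.0693 (adjusted p = 0.919). The SH call of Rpl10 was lost without the 4 choroid-rich libraries (adjusted p = 0.0752).

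Of the other large-subunit genes that fell in SH, Rpl36 had 1612 to 1864 normalized counts in the control group and 1276 to 1345 in SH, Rpl27a had 3740 to 4615 and 2915 to 3293, and Rpl19 had 4825 to 5190 and 3504 to 4365. None of the 3 overlapped between these groups. Their log2 fold changes were -0.41 (Rpl36, adjusted p = 0.00137), -0.39 (Rpl27a, 0.00601) and -0.37 (Rpl19, 0.00331). Of the 29 calls in SH, 18 were kept in all 14 fits that left out 1 library and 10 were kept under every alternative run. Those 10 were Rpl13a, Rpl17-ps8, Rpl19, Rpl22l1, Rpl27a, Rpl34, Rps10, Rps19, Rps24 and Rps29.

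The rest of the calls in SH depended on a library or on the treatment of GC content. Rpl35a was lost without control replicate 3 or 4 (adjusted p up to 0.0699), Rps20 without control replicate 3 (0.0594) and Rps9 without control replicate 2 or SH replicate 2 (up to 0.0798). Rpl29 was lost without control replicate 2, 3 or 4 or SH replicate 3 (up to 0.0748), Rpl21 without control replicate 1 or 2 or SH replicate 2, 3 or 4 (up to 0.105) and Rps23 without control replicate 2, 3 or 4 or SH replicate 1, 2 or 3 (up to 0.0978). Rps12 was lost without control replicate 1, 3 or 4 or SH replicate 1, 2 or 4 (up to 0.0979), and the pseudogene Rpl6l without control replicate 2, 3 or 4, IH replicate 1, 2 or 4 or SH replicate 2, 3 or 4 (up to 0.132). Rpl13, Rpl32, Rpl35, Rpl36, Rplp2 and Rps2 held in all 14 of these fits and were lost when GC and length trends were removed, and Rpsa when the trends were taken on the coding sequence (adjusted p = 0.0754).

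The 4 members that rose in SH were Rpl22l1, Rpl17, its pseudogene Rpl17-ps8 and Rps6. Rpl22l1 (chr3:28859585-28861573), the paralog of the RNA-binding large-subunit gene Rpl22, had 397, 516, 586 and 461 normalized counts in the control group. It had 535, 505, 648, 474 and 538 in IH and 737, 772, 875, 708 and 893 in SH. All SH libraries lay above all others, and the IH and control libraries overlapped. The log2 fold change was 0.70 ± 0.118 in SH (adjusted p = 0.00156) and 0.14 ± 0.118 in IH (adjusted p = 0.437). Rps6, the small-subunit protein phosphorylated by S6 kinases downstream of mTOR, had 3271, 3640, 4034 and 3579 in the control group, 3168, 3575, 4003, 3301 and 3755 in IH and 4207, 3990, 4261, 4358 and 4391 in SH. Its SH libraries overlapped the control libraries only at the lowest value, and the change was 0.22 ± 0.0728 (adjusted p = 0.0408). That call was lost without control replicate 1, 2 or 4, IH replicate 2 or SH replicate 3, 4 or 5, at adjusted p = 0.052 to 0.13.

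Rpl17 (chr18:75131629-75137220), whose protein lines the exit of the peptide tunnel, had 1 library far above the others. It had 673, 711, 713 and 887 normalized counts in the control group, 680, 675, 803, 602 and 691 in IH and 783, 1851, 984, 1050 and 1074 in SH, where replicate 2 was that library. The SH value was 0.62 ± 0.187 (adjusted p = 0.0291), and it was lost without control replicate 1, 2 or 3, at adjusted p = 0.0615 to 0.0855. Without SH replicate 2 it was 0.38 (adjusted p = 0.0405). The pseudogene Rpl17-ps8 on the X chromosome had 79 to 110 normalized counts in the control group, 72 to 96 in IH and 116 to 185 in SH. Reads cannot be told apart where the 2 genes have the same sequence. Their sum, taken after seeing the data and with SH replicate 2 in it, changed by 0.63 ± 0.171 in SH (adjusted p = 0.0187).

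**Figure D2:**
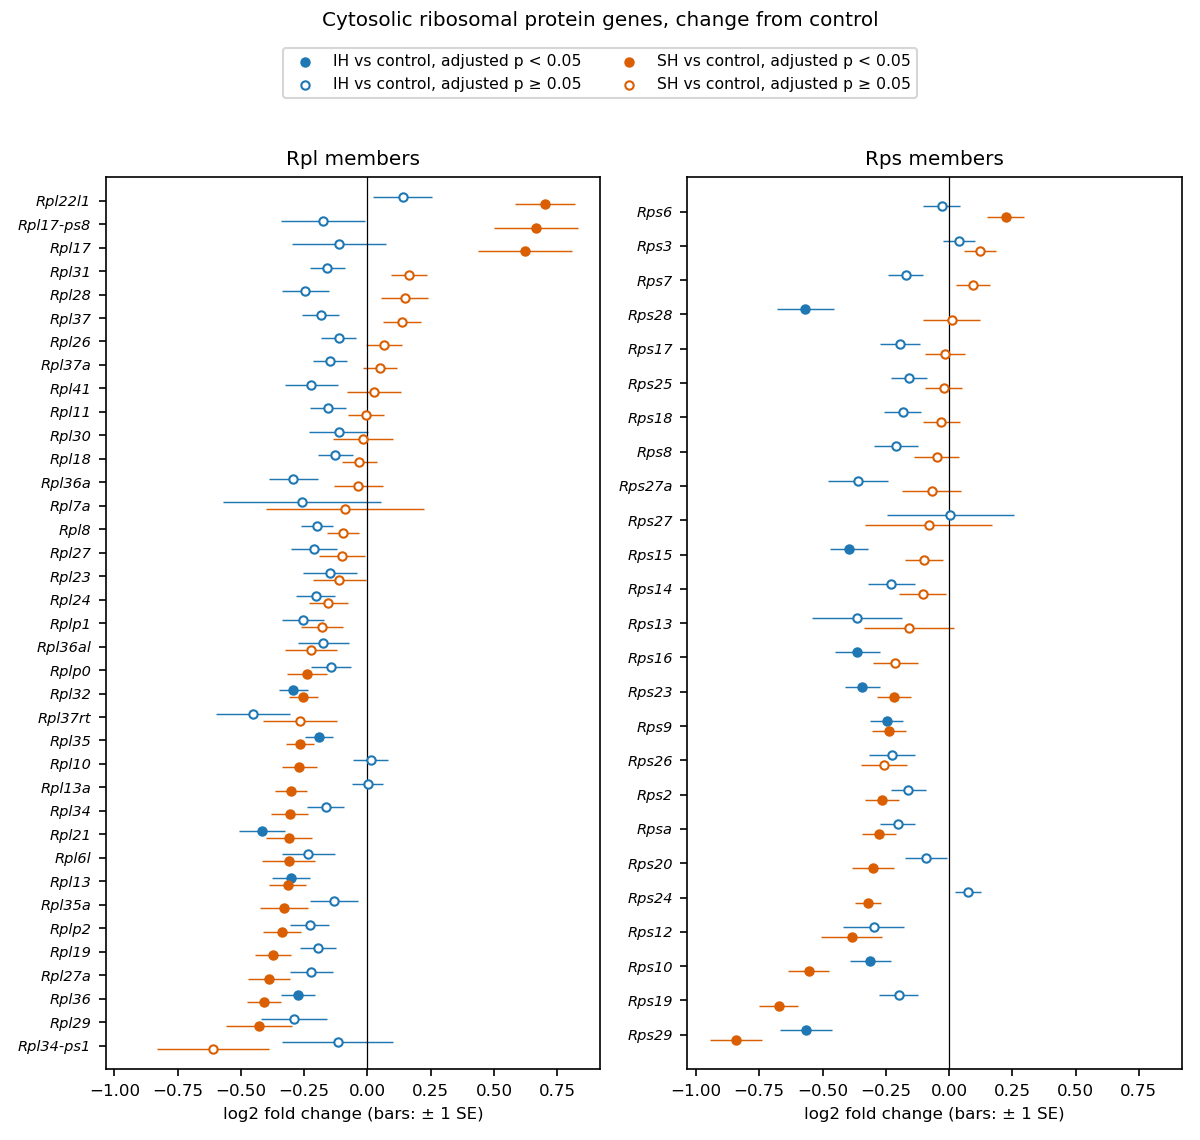
Log2 fold change from control of the members reported here in IH (blue) and SH (orange), with Rpl members on the left and Rps members on the right, ordered by the SH value. Bars are ± 1 SE, and filled points have an adjusted p under 0.05. The IH values lie between -0.57 and 0.14 around a median of -0.20, and the SH values run from -0.84 (Rps29) to 0.70 (Rpl22l1).

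Both comparisons share the 4 control libraries, so that likeness between them is no separate finding. Of the members, 9 were lower in both, 4 fell in IH and were not called in SH, and 16 fell in SH and were not called in IH. In all, 27 of the 64 were called in no comparison. Of all genes tested, 4.85% were lower in IH and 10.5% in SH. The overlap of calls over all genes was not counted, so this split cannot be read as a trait of the members.

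The third comparison sets IH against SH directly. Here 13 members were called, 9 lower and 4 higher in IH, which is 20.3% of the members where 2.37% of all genes were called (0.899% lower and 1.47% higher). The median log2 difference was -0.10 over members, -0.09 over Rpl and -0.12 over Rps members, and 0.00 over all genes. At the study's limits 2 members were lower in IH than in SH and 0 were higher, and 0.981% of all genes passed them. The 4 genes higher in IH were Rps24 (0.40 ± 0.0484, adjusted p = 0.000504), Rps19 (0.47 ± 0.0731, 0.00444), Rpl13a (0.30 ± 0.0583, 0.0142) and Rpl10 (0.28 ± 0.0655, 0.0348). Their IH and SH libraries did not overlap in any of the 4 genes. The 9 lower in IH were Rps28 (-0.58 ± 0.106, 0.012), Rpl17-ps8 (-0.84 ± 0.157, 0.0124), Rpl22l1 (-0.56 ± 0.111, 0.0166), Rpl31, Rpl37, Rpl28, Rpl17, Rps15 and Rps7.

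Among those not yet described, Rpl31, Rpl37, Rpl28 and Rps7 had control levels between their IH and SH levels. Rpl31, whose protein lies at the tunnel exit, had means of 2573, 2307 and 2881 normalized counts in control, IH and SH, Rpl37 had 2842, 2501 and 3124, Rpl28 had 2418, 2040 and 2679, and Rps7, whose protein can bind MDM2, had 3139, 2788 and 3352. None of these 4 was called against control in either group. Their differences between IH and SH were -0.32 (Rpl31, adjusted p = 0.0224), -0.32 (Rpl37, 0.0265), -0.39 (Rpl28, 0.0283) and -0.27 (Rps7, 0.0387).

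This comparison too depended on single libraries. The number of calls was 6 without IH replicate 1 or without IH replicate 4, 7 without SH replicate 4, 8 without replicate 2 of IH or replicate 3 or 5 of SH, and at most 14 without any other. In 6 genes the call held in all 14 such fits: Rpl13a, Rpl17-ps8, Rpl22l1, Rps19, Rps24 and Rps28. Rpl28, Rpl31 and Rpl37 were lost without IH replicate 1 (adjusted p = 0.0512 for each) or 4 (0.0711, 0.0572 and 0.066). They were also lost without SH replicate 4 (0.0541, 0.0526 and 0.0612). Rpl31 was further lost without SH replicate 2 (0.0559), Rpl28 and Rpl37 without IH replicate 2 (0.0691 and 0.0704) or SH replicate 5 (0.0551 and 0.0615), and Rpl37 without SH replicate 3 (0.0552). Rpl10 (adjusted p up to 0.0868) was kept only without control replicate 1, 3 or 4, IH replicate 2 or SH replicate 4. Rpl17 (up to 0.0947) was kept only without control replicate 4 or SH replicate 1 or 2. Rps15 (up to 0.0976) was kept only without IH replicate 3 or SH replicate 2, and Rps7 (up to 0.096) only without control replicate 1 or 3 or IH replicate 3. Without the 4 choroid-rich libraries, 1 member stayed called, Rps24. None was then lower in IH (0 by edgeR, 10 at an unadjusted p under 0.05), and the median over members was -0.03. The log2 differences of the other 5 genes that held in all 14 fits were then 0.52 (Rps19, adjusted p = 0.0562), 0.35 (Rpl13a, 0.0992), -0.53 (Rps28, 0.132), -0.53 (Rpl22l1, 0.136) and -0.91 (Rpl17-ps8, 0.089).

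**Figure D3:**
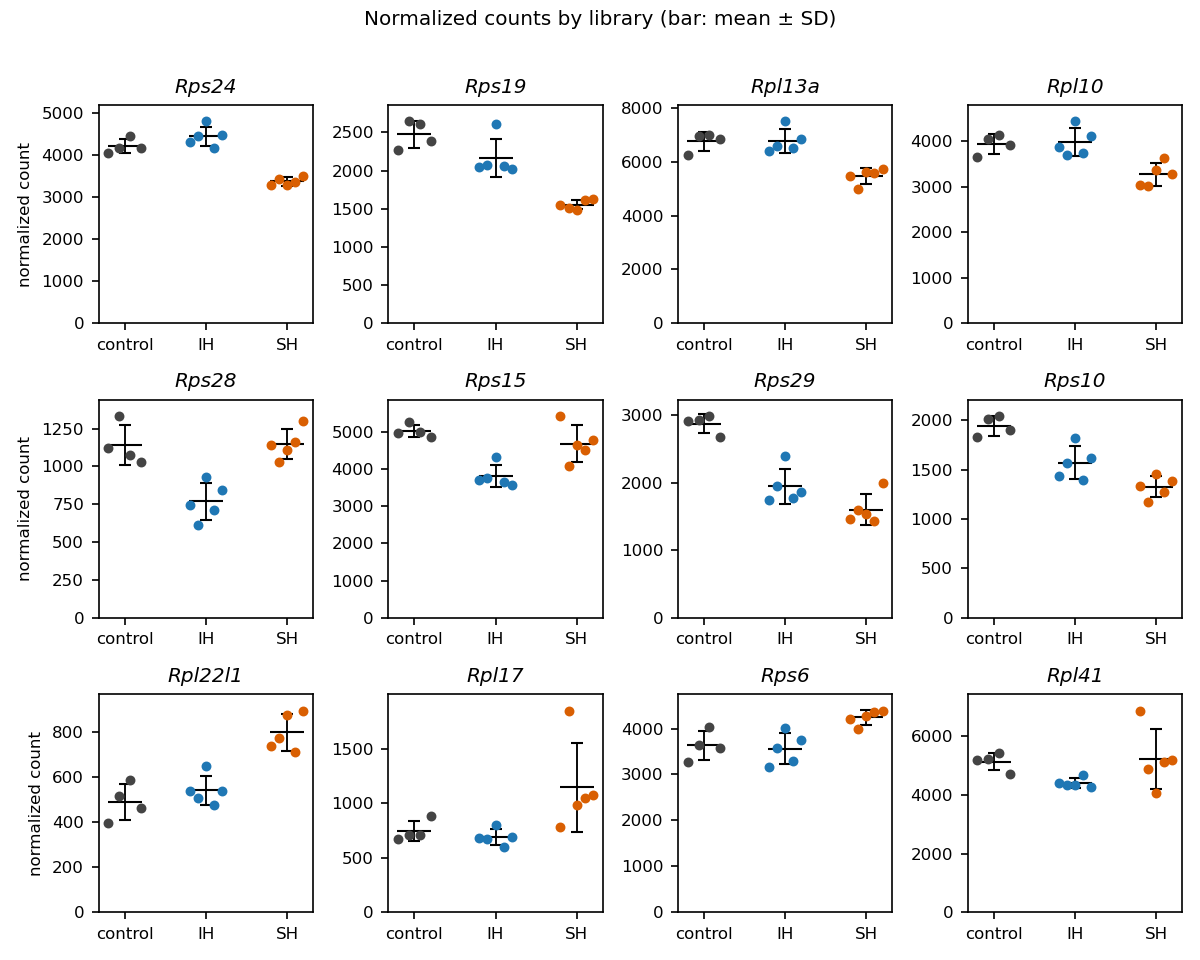
Normalized counts of 12 members in each library (points) by group, with the mean ± SD (bars), on axes that start at 0. Rps24, Rps19, Rpl13a and Rpl10 are low in SH, Rps28 and Rps15 are low in IH, Rps29 and Rps10 are low in both, and Rpl22l1 is high in SH.

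Members of known special roles were spread over these patterns. Of the stalk genes, whose proteins recruit the translation factors that use GTP, Rplp2 fell in SH (1694 to 1853 normalized counts in control, 1332 to 1569 in SH, -0.34 ± 0.0768, adjusted p = 0.00762). Rplp0 had -0.24 ± 0.0789 in SH (adjusted p = 0.0429), and its call was lost without control replicate 1, 2 or 3, IH replicate 2 or SH replicate 1, 2 or 3 (adjusted p = 0.0508 to 0.114). Rplp1 had -0.18 (adjusted p = 0.131) in SH and -0.25 (0.0578) in IH. Rpsa, which doubles as a laminin-binding protein, fell in SH (-0.28 ± 0.0678, adjusted p = 0.011). Rpl11, which forms a particle with 5S RNA and can bind MDM2, was called in neither (-0.16, adjusted p = 0.154 in IH and -0.01, 0.963 in SH). Rps27a, which is made as a fusion with ubiquitin, had 1259 to 1607 normalized counts in the control group and 1033 to 1384 in IH (-0.36 ± 0.117, adjusted p = 0.058). Its adjusted p was 0.0215 without IH replicate 3 and 0.0256 without SH replicate 5, and 0.051 or more without any other. It was also called with only the 2 groups in the fit (0.0426), with the replicate block (0.0467), and with the GC and length trends (0.0224) or the coding trends (0.0334) removed. The paralogs Rpl36a (-0.29, adjusted p = 0.0609 in IH and -0.04, 0.824 in SH) and Rpl36al (-0.17, 0.258 and -0.22, 0.127) were called in no comparison. Once IH replicate 3 was left out, Rpl36a (-0.38, adjusted p = 0.0102), Rplp1 (-0.31, 0.0184), Rplp2 (-0.28, 0.0229), Rpsa (-0.25, 0.0234) and Rpl11 (-0.22, 0.0303) passed the threshold in IH, and Rpl36a also between IH and SH (-0.34, 0.0387). With all libraries, DESeq2 called Rpl36a (adjusted p = 0.0399), Rplp1 (0.0365), Rps27a (0.0295) and Rpsa (0.0493) in IH. Rplp1 was also called without SH replicate 1 (0.0481) or 2 (0.0468), and with scaling by the 80th percentile (0.0483), and Rpsa without SH replicate 2 (0.0495). Rpl36a was also called with the replicate block (0.0434) and with the coding trends removed (0.0448).

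The members with the widest spread between libraries of a group were Rpl7a, Rps27, Rpl34-ps1, Rps13 and Rpl17. Rpl7a ran from 344 to 1581 normalized counts within the SH group alone, and Rps13 from 991 to 1682. Both were called in no comparison. Of the 64 members, 56 had at least 1 annotated transcript elsewhere with at least 95% identity over 80% of their length, with a median of 5 such copies. Among the 8 without any by this measure were Rpl41, Rpl37rt, Rpl37a, Rps19, Rps29, Rpl8 and Rps3. Rpl37rt is non-coding, so its whole transcript was compared, and matches to only part of it were not counted. It is treated below as a row of like sequence to Rpl37. The median SD around the group means was 0.116 on the log2 scale in the 8 members without a counted copy. It was 0.124 with 1 to 5 copies and 0.114 with more, and these values hold only for copies counted in this way. Rps19 and Rps29, which fell most in SH, had no copy by this measure. It counts only matches over 80% of the listed coding sequence, 636 and 285 bases, so shorter copies may have been missed. Whether the counts of these genes are free of reads from copies was not tested.

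Rps27 shows how counts divide between a gene and its copy. Rps27 (chr3:90119819-90120977, minus strand, 4 coding exons) encodes a zinc-finger protein of the small subunit, and Rps27rt (chr9:114811434-114811807, minus strand, 1 coding exon) is a retrocopy that the choice of members left out. Their coding sequences in GRCm39, 252 bases each, differed at 0 positions. It is shown here since no read that lies within it can tell the 2 genes apart.
Rps27 and Rps27rt: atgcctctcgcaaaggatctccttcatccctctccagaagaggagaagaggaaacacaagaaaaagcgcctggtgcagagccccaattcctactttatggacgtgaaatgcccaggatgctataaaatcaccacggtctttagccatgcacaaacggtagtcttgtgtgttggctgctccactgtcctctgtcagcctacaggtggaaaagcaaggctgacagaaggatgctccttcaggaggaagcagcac

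Rps27 had 778, 1533, 1271 and 776 normalized counts in the control libraries, 1036, 846, 959, 1422 and 1205 in IH and 1522, 819, 711, 782 and 1310 in SH, and its groups overlapped widely. Rps27rt was high where Rps27 was low. The coefficient of variation within the control group was 34.5% for Rps27, 35.1% for Rps27rt and 4.48% for their sum, and in SH it was 35.3%, 41.7% and 7.01%. The sum was 1855 to 2058 in the control group, 1387 to 1642 in IH and 1693 to 2021 in SH, so that IH lay wholly below both other groups. Rps27 alone gave a log2 fold change of 0.01 ± 0.25 in IH (adjusted p = 0.99), and the sum, an alternative chosen after seeing the data, gave -0.38 ± 0.0657 (adjusted p = 0.00298). For SH the sum gave -0.13 ± 0.0657 (adjusted p = 0.175), and for IH against SH -0.25 ± 0.0623 (adjusted p = 0.0467).

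**Figure D4:**
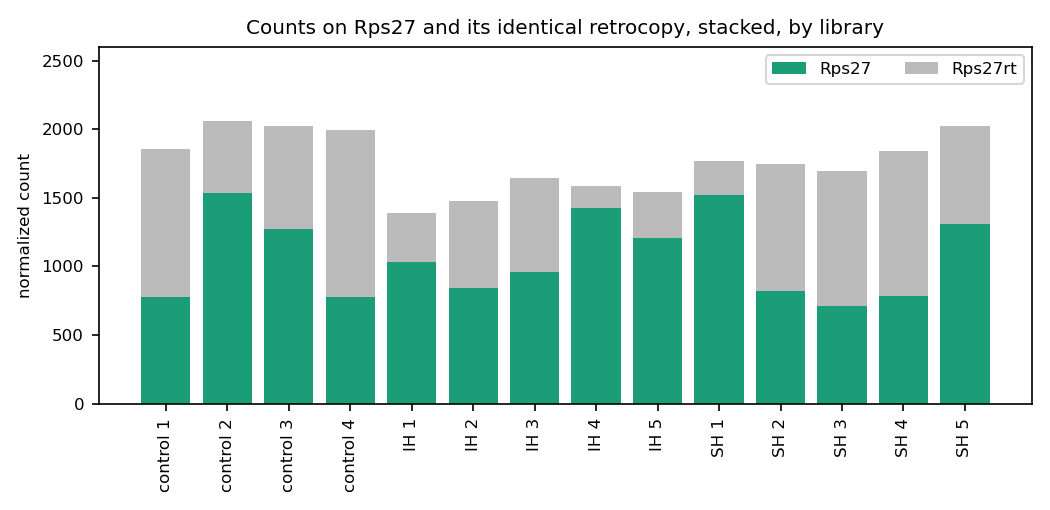
Normalized counts on Rps27 (green) and Rps27rt (grey), stacked, in each of the 14 libraries. The split between the 2 genes varies from library to library, whereas the height of the whole bar is 1855 to 2058 in the control group, 1387 to 1642 in IH and 1693 to 2021 in SH.

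The pseudogene Rpl34-ps1 had 115 to 189 normalized counts in the control group, 90.6 to 149 in IH and 62.5 to 115 in SH, where all libraries lay below the control libraries. Its log2 fold change in SH, -0.61 ± 0.221, lay between those of Rps19 and Rps10 but was not called (adjusted p = 0.061). It was called by DESeq2 (0.0404), with the replicate block (0.0413) and without SH replicate 5 (0.0456). Rpl37rt had 140 to 183 in the control group and 97.2 to 146 in IH, with overlap, and its value of -0.45 ± 0.146 in IH was the lowest after Rps28 and Rps29. It was not called (adjusted p = 0.0577), but it was by DESeq2 (0.042) and without IH replicate 2 (0.0467). Rpl34 summed with Rpl34-ps1 fell by 0.33 ± 0.0667 in SH (adjusted p = 0.00418), as Rpl34 alone did (-0.31 ± 0.074, adjusted p = 0.0103). Rpl37 summed with Rpl37rt differed between IH and SH (-0.32 ± 0.0692, adjusted p = 0.0268) as Rpl37 alone did.

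The ribosomal protein genes outside the chosen members are given for comparison. Rps21, a small-subunit protein, had means of 2820 ± 202 (SD, n = 4), 1957 ± 124 (n = 5) and 3254 ± 363 (n = 5) normalized counts in control, IH and SH. It was lower in IH (-0.53 ± 0.0811, adjusted p = 0.00137) and its SH value was 0.21 ± 0.0814 (adjusted p = 0.082). Rpl38, a large-subunit protein known for its part in translation of Hox mRNAs, had 2008 ± 168, 1372 ± 67.7 and 1154 ± 78.1, and fell in IH (-0.55, adjusted p = 0.000512) and in SH (-0.80, 1.46e-05). Rpl39, which lines the exit tunnel, had 787 ± 34.0, 615 ± 80.5 and 1085 ± 82.4. It fell in IH (-0.36, adjusted p = 0.0211, lost without control replicate 2 at 0.0684) and rose in SH (0.46, adjusted p = 0.00371). Fau, whose protein is made as a fusion with a ubiquitin-like domain, was lower in SH (-0.30, adjusted p = 0.00963).

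Mitochondrial ribosomal proteins, which serve the separate ribosome of the mitochondrion, were counted in the same fit. Of 43 tested, 1 was lower in IH (Mrpl52, adjusted p = 0.0238, lost without control replicate 2, 3 or 4 or IH replicate 1, 4 or 5 at up to 0.0671) and 12 were lower in SH, where 4.85% and 10.5% of all genes were lower. Of the 12, 8 held in all 14 fits that left out 1 library. By edgeR, 0 were higher in either comparison (0 in IH and 1 in SH at an unadjusted p under 0.05, and 0 by DESeq2). Their median log2 fold change was -0.07 in IH and -0.19 in SH, and 0.14 between IH and SH. The largest falls in SH were in Mrpl52 (394 ± 22.7, 295 ± 44.3 and 202 ± 15.6 normalized counts in control, IH and SH, -0.97 ± 0.109, adjusted p = 0.000155) and Mrpl54 (-0.87 ± 0.119, adjusted p = 0.000471). Between IH and SH, 3 were higher in IH and held in all 14 fits: Mrpl54 (0.68, adjusted p = 0.00741), Mrpl52 (0.55, 0.014) and Mrpl20 (0.48, 0.0142). Whether the cytosolic and mitochondrial members differed from each other was not tested.

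Factors that make and regulate ribosomes are set against the share of all genes called, 10.9% in IH and 20.6% in SH. Of 40 ribosome biogenesis genes tested, 3 were lower and 1 higher in IH and 2 were lower and 4 higher in SH, and in each comparison all but Rrn3 and, in SH, Polr1g were lost without 1 library or another. Rrn3, the initiation factor that brings RNA polymerase I to the ribosomal RNA genes, rose in both (0.25 ± 0.0539, adjusted p = 0.0101 in IH and 0.32 ± 0.0539, 0.00146 in SH), and Polr1g, a subunit of that polymerase, fell in SH (-0.42 ± 0.0913, adjusted p = 0.00604). Of 5 translation factors with TOP mRNAs in the table, Eif3f fell in IH (-0.32 ± 0.0592, adjusted p = 0.0047) and in SH (-0.47 ± 0.0593, 0.000289). In SH, Eef1g (-0.19, adjusted p = 0.0171) and Naca (-0.24, 0.0372, lost without control 2 or 3, IH 4 or SH 1, 3 or 4 at up to 0.111) were also lower. Of 12 genes of mTOR and LARP1 control, 0 were called in IH by edgeR or DESeq2 (2 higher at an unadjusted p under 0.05). In SH 2 were lower and 2 higher, and all 4 of those calls were lost when 1 library or another was left out. Of 7 import factors and chaperones of ribosomal proteins, 0 were called in IH by edgeR or DESeq2 (0 at an unadjusted p under 0.05). In SH Aamp was lower (-0.25, adjusted p = 0.00516) and Bccip higher (0.23, adjusted p = 0.038), the latter lost without any 1 of the control libraries or SH replicate 3, 4 or 5 (up to 0.111).

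Markers of other cells were counted the same way, over the tested genes of each list. Of 19 choroid plexus markers, 0 were called in any comparison by edgeR or DESeq2 (0 at an unadjusted p under 0.05). By edgeR, in IH against control, 1 of 15 excitatory neuron markers, 0 of 8 interneuron markers, 1 of 3 astrocyte markers, 1 of 9 oligodendrocyte markers and 0 of 6 microglia markers were higher or lower, as were 2 of 10 endothelial markers. In SH against control the counts by edgeR were 2, 1, 1, 1, 3 and 3. DESeq2 called 3 excitatory neuron markers lower and 1 higher in each of these comparisons, and 1 interneuron marker higher in IH and 3 in SH. Between IH and SH, edgeR called 0 excitatory neuron, interneuron, astrocyte and oligodendrocyte markers (0, 1, 1 and 0 at an unadjusted p under 0.05, and 0 by DESeq2). It called the microglial gene C1qc higher in IH (0.50 ± 0.113, adjusted p = 0.0323, lost without any 1 of IH replicates 1 to 4 or SH replicates 2 to 5 at up to 0.0792) and the endothelial gene Itm2a lower (-0.60 ± 0.0671, 0.000324, kept in all 14 fits). Of the 4 globin genes, 0 were called between IH and SH by edgeR and 1 by DESeq2, and 3 were lower in IH at an unadjusted p under 0.05. Of the oligodendrocyte markers, 8 of 9 had a positive value in IH and 9 of 9 in SH, with medians of 0.42 and 0.38, and Ermn was the one called (0.73, adjusted p = 0.0495 in IH and 0.77, 0.0255 in SH). The IH call of Ermn was lost without any 1 of the control libraries, IH replicate 2, 4 or 5 or SH replicate 1 or 4 (up to 0.136), and the SH call without control replicate 1 or 4 or SH replicate 4 or 5 (up to 0.0838). The summed level of the list was 75922 to 112291 normalized counts in the control group, 87962 to 199235 in IH and 86600 to 149827 in SH. Prox1, a marker of dentate granule neurons, was higher in IH (0.66 ± 0.159, adjusted p = 0.0169, lost without control replicate 1 or 2 at up to 0.0575) and in SH (0.81 ± 0.159, 0.00388). Other markers of excitatory neurons had values of the opposite sign. Slc17a7, the vesicular glutamate transporter, was lower in SH (-0.26 ± 0.0725, adjusted p = 0.0215, lost without control replicate 1 or 2 at up to 0.069) and had -0.23 in IH (0.0542). Fibcd1 had -0.39 in IH and -0.34 in SH (0.0647 and 0.0725), and Nrgn had -0.27 and -0.25 (0.0719 and 0.0718). The part of these markers in the members' levels was not tested.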

How the data were processed

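Hippocampal RNA of 14 mice (4 control, 5 IH, 5 SH) was sequenced as poly(A)-selected, directional libraries. The authors deposited estimated counts per gene. The submitters' processing notes name bcl2fastq 2.19, FastQC, fastp 0.23.4, HISAT2 2.2.1, StringTie 2.2.1 and GRCm39. Per the study's methods, the table was limited to protein-coding genes above a minimum signal that differed from control. It does hold genes that the annotation used here gives as pseudogenes or non-coding, 4 of them members. The selection means that adjusted p-values and shares hold within these 7756 genes. Which of several equal matches a read was given to is not given in the sources used here.

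Groups were taken from the labels, and 0 sample columns were left unused. Values were whole except in 10 genes (1 member, Rpl37rt) and were rounded. Counts were tested with edgeR 4.0.16 (R 4.3.3; TMM scaling, quasi-likelihood test, 1 fit of the 3 groups, genes with a mean of at least 40 counts in every group, 7338 genes) and adjusted after Benjamini-Hochberg over all of them, with an adjusted p under 0.05 as the threshold. Normalized counts are scaled to a common library size. P-values set the difference between groups against the spread between samples within groups. In the comparisons with control, they do not account for the difference between the preliminary and the main experiment. In data simulated for IH against control over 7338 genes, 61.5% of 200 changed genes were recovered, with 3 false calls. The sizes set for these 200 genes are not given here. Recovery at the size of the members' own fold changes was not tested. No libraries were counted as duplicates, since every pair within a group differed by more than sampling noise (chi-square per degree of freedom of at least 8.74). Copies were found with BLAST 2.17.0 among annotated transcripts. Levels were taken per kb of coding sequence, and not of exon as planned, because annotated transcripts of several members carry long 3′ ends.

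Same-numbered samples of different groups did not deviate together throughout (r from -0.296 to 0.466 over genes in 13 pairs), and were not treated as pairs. The named members were those with the 5 lowest and 5 highest fold changes and the 10 lowest adjusted p-values per comparison, the 5 highest and 3 lowest levels, the 5 widest spreads, and paralogs, stalk genes and members with special roles. Further called members were named to account for every call. For the other lists, up to 2 called genes in each direction were named. Some genes are not reported here. Members and lists were chosen with earlier results of these data known. Alternatives were DESeq2 1.42.0, other scalings, no filter, 2 groups only, a replicate block, removal of GC and length trends, and leaving out each library.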

Additional observations from a re-analysis of the deposited data

Results flagged for a closer look

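Of 129 groups of values tested by the gap of the highest or lowest library, 9 had a library that stood apart, and chance gives about 1 in 20. IH replicate 3 was high in 6 of them. It had 4298.4 normalized counts of Rpl27a (others 3251.9 to 3481.4), 4325.8 of Rps15 (3578.0 to 3766.0), 2608.4 of Rps19 (2019.8 to 2074.8) and 1383.5 of Rps27a (1033.0 to 1110.8). Its share of counts was 1.037% on the Rpl members (others 0.8866% to 0.929%) and 0.8399% on the Rps members (0.704% to 0.742%). SH replicate 2 was high in Rpl17, at 1851.2 (782.71 to 1074.2), SH replicate 5 in Rps29, at 1999.9 (1425.6 to 1590.0), and control replicate 4 in Rpl34-ps1, at 189.33 (115.43 to 121.69).

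In 13 members the effects of IH and SH differed, by the edgeR test of the contrast between them. The log2 difference of IH from SH was 0.4748 in Rps19, 0.3972 in Rps24, 0.3036 in Rpl13a and 0.2811 in Rpl10. It was -0.8415 in Rpl17-ps8, -0.7348 in Rpl17, -0.5777 in Rps28, -0.5626 in Rpl22l1, -0.3931 in Rpl28, -0.3215 in Rpl37, -0.3206 in Rpl31, -0.2974 in Rps15 and -0.2662 in Rps7.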

How the results depend on the processing

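Removing trends on GC content and length left 6 members called in IH against control (median -0.106) and 17 in SH against control. Trends on coding GC content and length left 8 and 17. Without the 4 libraries richest in choroid plexus markers, 0, 19 and 1 members were called in IH against control, SH against control and IH against SH, and with only the 2 groups in the fit 7 were called in the last. Part of the loss without 4 libraries comes from fewer samples. For the other alternatives the cause was not tested. Leaving out 1 library gave 6 to 35, 21 to 30 and 6 to 14 calls, with medians of -0.2445 to -0.1778, -0.2194 to -0.1221 and -0.134 to -0.0553. DESeq2 called 19, 31 and 14. The share of all genes called is not given for these alternatives, so a change in the members apart from all genes cannot be read from the counts. With the fold limit lowered to 0.32 on the log2 scale, 8, 14 and 8 members passed the study's limits. The alternatives on coding GC content, on summed rows of like sequence, on choroid-rich libraries and on protein-coding members were chosen after seeing the data.

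The median of the Rpl members less that of the Rps members was 0.0135 in IH, -0.0357 in SH and 0.0388 between IH and SH. In SH it was 0.0181 with GC and length trends removed, -0.0081 with the coding trends removed, 0.0106 without the choroid-rich libraries, -0.0113 with like genes summed and -0.0011 over protein-coding members. Between IH and SH it was 0.0098 with GC and length trends removed. With 1 library left out it ran from 0.0017 to 0.0439, from -0.102 to -0.0036 and from 0.0106 to 0.0719. The sign of this difference in SH is thus not settled.

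With the replicate number as a block, 15, 30 and 12 members were called and the Rpl less Rps difference between IH and SH was 0.0611. The numbers did not pair the samples.

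No called value of a named member changed sign. Among those not called, the value in IH changed sign in Rpl10 (-0.0014, coding trends removed), Rpl17 (0.0513, without the choroid-rich libraries), Rpl34-ps1 (0.117, GC and length trends removed) and Rps6 (0.064 and 0.0543 under these last 2 in turn, trends first). Rps27 in IH gave -0.0045 with 80th percentile scaling, -0.0631 with the replicate block, -0.245 without the choroid-rich libraries and -0.3773 summed with its copy, which gave -0.2494 between IH and SH. In SH, Rpl11 gave 0.0165 (library total), 0.0016 (no filter), 0.0435 and 0.0452 (trends, coding trends) and 0.0026 (without the choroid-rich libraries). Trend removal in SH gave 0.0236 in Rpl36a, 0.0145 in Rpl7a, 0.0636 in Rplp1 and 0.0095 in Rps27 (0.0017 with coding trends). Without the choroid-rich libraries Rpl36a gave 0.0066 in SH and Rplp1 0.0104 between IH and SH. Leaving out 1 library spanned 0 in IH for Rpl10 (-0.0306 to 0.0383), Rpl34-ps1 (-0.1908 to 0.078), Rps27 (-0.1263 to 0.2147), Rps3 (-0.0032 to 0.074) and Rps6 (-0.0754 to 0.0266). It did so in SH for Rpl11 (-0.0395 to 0.0523), Rpl36a (-0.0777 to 0.0098), Rpl7a (-0.2709 to 0.1351) and Rps27 (-0.2658 to 0.1286), and between IH and SH for Rpl36al (-0.0086 to 0.1159), Rpl7a (-0.3942 to 0.0117) and Rps27 (-0.0313 to 0.2714).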
